A study of Mus musculus with 10 samples.

Results

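The GTPases of immunity-associated proteins (GIMAPs) are 8 genes here, Gimap1, Gimap3, Gimap4, Gimap5, Gimap6, Gimap7, Gimap8 and Gimap9, out of 54408 genes with a summed estimated count. They were taken by symbol, and all 8 passed the filter on low counts. The family was selected on the NFAT5 KO against WT differences in these same counts. Its genotype values are therefore given as a description, and no p-value is given for them. Whether a member passed the threshold in a fit is likewise a description and no test of it. The RNA came from P14 CD8 T cells that had entered subcutaneous B16-gp33 tumours. The T cell receptor of P14 cells is a transgene that recognises gp33, a viral peptide, and B16 is a line of mouse melanoma cells that here presents that peptide. The 5 libraries called NFAT5 KO came from NFAT5flox/flox CD4-Cre+/- cells, in which a Cre recombinase driven by the Cd4 promoter acts on floxed Nfat5 alleles. The 5 libraries called WT came from NFAT5flox/flox CD4-Cre-/- cells, which carry the same floxed alleles without Cre. Both were of C57BL/6 strain, were activated in culture for 48 hours and were then given to mice with tumours at a label dose of 5 Mio cells. Sorting followed 7 days after transfer. How transferred cells were told from host CD8 T cells is not given in the sources used here. No label says that the libraries came from separate mice, and a p-value therefore measures spread among libraries that may be technical.

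GIMAPs are small GTPases found mainly in lymphocytes, built around a guanine nucleotide-binding domain, and several of them sit on membranes inside the cell. They are known for keeping resting lymphocytes alive. Loss of Gimap5 in rats and mice depletes peripheral T cells, and loss of Gimap1 in mice depletes mature T and B cells. Expression of the family is known to be high in resting T cells.

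The libraries held 22444310 to 32001285 estimated counts. T cell markers were abundant in all of them, with Cd3e at 1370 ± 87.2 CPM in NFAT5 KO and 1248 ± 35.2 CPM in WT libraries (SD, n = 5 each), and Cd8a at 1420 ± 53.4 CPM in NFAT5 KO and 1446 ± 80.1 CPM in WT libraries. CPM are counts scaled to a common library size, with TMM factors. Nfat5 itself stood at 11.6 to 26.8 CPM in NFAT5 KO and at 9.20 to 18.3 CPM in WT libraries. Counts of a whole gene do not show whether its floxed part is missing, and they leave the genotype labels unchecked. In the fit over all 13081 genes tested, 1179 (9.01%) passed the threshold (edgeR quasi-likelihood test, adjusted p below 0.05), with 442 (3.38%) higher in NFAT5 KO libraries and 737 (5.63%) lower. In bulk RNA, fewer cells of a type and less RNA per cell cannot be told apart.

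All 8 genes lie side by side on chromosome 6 of GRCm38, between positions 48647234 and 48770851, a span of 124 kb. Gimap6 and Gimap3 are on the minus strand and the other 6 are on the plus strand. RefSeq promoters (GRCm38.p6, 250 bases before to 50 bases after a start) were found for all 8, in 9 entries because Gimap8 has 2 starts. The promoters of Gimap3 and Gimap6 are shown because these were the members whose genotype groups did not overlap in CPM. Those of Gimap5 and the second start of Gimap8 are shown because they matched the tonicity-responsive element, the sequence that NFAT5 is known to bind. Capitals mark the letters TGGAAA, read on either strand, and the whole element where it matched.
Gimap3 (chr6:48770802-48771101, minus strand): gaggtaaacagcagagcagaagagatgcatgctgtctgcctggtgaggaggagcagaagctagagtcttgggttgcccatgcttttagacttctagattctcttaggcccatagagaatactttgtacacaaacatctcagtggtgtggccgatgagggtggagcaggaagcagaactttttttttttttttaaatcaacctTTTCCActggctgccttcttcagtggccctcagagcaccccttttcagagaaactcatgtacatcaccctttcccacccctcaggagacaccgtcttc
Gimap6 (chr6:48708195-48708494, minus strand): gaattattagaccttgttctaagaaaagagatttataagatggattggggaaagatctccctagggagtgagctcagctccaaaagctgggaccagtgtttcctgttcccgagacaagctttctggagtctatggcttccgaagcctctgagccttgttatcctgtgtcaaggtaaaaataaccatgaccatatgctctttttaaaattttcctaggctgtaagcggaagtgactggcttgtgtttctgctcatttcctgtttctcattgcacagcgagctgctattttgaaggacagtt
Gimap5 (chr6:48745947-48746246, plus strand): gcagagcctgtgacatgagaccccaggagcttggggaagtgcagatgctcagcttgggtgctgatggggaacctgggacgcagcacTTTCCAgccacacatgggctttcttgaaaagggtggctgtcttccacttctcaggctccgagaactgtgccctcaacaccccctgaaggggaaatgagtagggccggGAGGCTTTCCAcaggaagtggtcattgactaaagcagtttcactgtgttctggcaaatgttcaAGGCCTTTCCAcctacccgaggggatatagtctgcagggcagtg
Gimap8 (chr6:48647111-48647410, plus strand): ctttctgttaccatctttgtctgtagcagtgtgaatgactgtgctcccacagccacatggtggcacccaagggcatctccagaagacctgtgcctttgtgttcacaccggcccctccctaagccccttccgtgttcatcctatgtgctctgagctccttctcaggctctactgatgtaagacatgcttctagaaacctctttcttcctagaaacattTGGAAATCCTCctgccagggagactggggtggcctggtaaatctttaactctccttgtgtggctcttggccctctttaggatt
The tonicity-responsive element was found in 2 of the 9 entries, against 4.97% of 32544 promoters of the same length. In Gimap5 it matched at -57 and at 7, both on the opposite strand, and in Gimap8 it matched at -33 on the gene's own strand, counted from the start as 1. The TGGAAA core, which every such element contains, was found in 5 of the 9 entries and in 21.5% of all promoters. It lay at -48 in Gimap3 and was not found in this window of Gimap6. ACAGGAAG, an ETS-type motif, was found in 2 entries (Gimap9 and Gimap5) and in 3.6% of all promoters. In Gimap5 its first base lay opposite the first base of a TGGAAA core on the other strand. The motifs named next overlapped no such core. TGTGGT, a RUNX-type motif, was found in 3 entries (Gimap4, Gimap7 and Gimap1) and in 16.7% of all promoters. CTTTGA, a TCF/LEF-type motif, was found in 2 entries (Gimap4 and Gimap7) and in 16.0% of all promoters. Both strands were searched, and a match describes letters and no binding.

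The family was abundant in both genotypes. Its 8 members together held 2434 to 3465 TPM in NFAT5 KO libraries, with a mean of 2885 ± 386 TPM, and 2133 to 2572 TPM in WT libraries, with a mean of 2386 ± 186 TPM (SD, n = 5 each). TPM is an abundance per effective transcript length and library total, so it allows levels of different genes to be compared. NFAT5 KO 678_3 (2434 TPM) lay below 3 of the WT libraries, so the groups overlapped. These sums are descriptions of the chosen members.

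Gimap4, which in mice is switched on as T cells mature, had the most RNA per length in every library, at 907 ± 82.5 TPM in NFAT5 KO and 791.5 ± 57.6 TPM in WT libraries. Gimap7, whose human counterpart can stimulate the GTPase activity of other family members, followed at 473.5 ± 94.3 TPM in NFAT5 KO and 413 ± 36.2 TPM in WT libraries. Gimap3, a membrane-anchored relative of Gimap5, stood next in both genotypes, at 449.5 ± 99.9 TPM in NFAT5 KO and 301 ± 30.4 TPM in WT libraries. Gimap7 was above Gimap3 in 3 of 5 NFAT5 KO libraries and in 5 of 5 WT libraries, so this pair changed places within the NFAT5 KO group. Gimap6, whose human counterpart binds an ATG8 protein of the autophagy pathway, stood at 362 ± 60.02 TPM in NFAT5 KO and 287 ± 18.5 TPM in WT libraries. Gimap3 was above Gimap6 in 5 of 5 NFAT5 KO libraries and in 3 of 5 WT libraries. Gimap1 and Gimap5 were close to each other in NFAT5 KO libraries, at 297.5 ± 60.0 and 295 ± 51.5 TPM, with Gimap1 the higher in 1 of 5, and stood at 262 ± 28.2 and 241 ± 37.8 TPM in WT libraries, with Gimap1 the higher in 5 of 5. Gimap9 at 74.6 ± 9.40 TPM in NFAT5 KO and 69.5 ± 7.12 TPM in WT libraries, and Gimap8 at 26.1 ± 2.03 TPM in NFAT5 KO and 21.3 ± 3.19 TPM in WT libraries, were the 2 lowest members in every library. Among all 54408 genes ranked by TPM within a library, Gimap4 stood between places 139 and 237 and Gimap8 between places 4473 and 5488.

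Every member had a positive log2 fold change of NFAT5 KO minus WT, as did 51.8% of all genes tested. One member, Gimap3, was past the threshold and higher in NFAT5 KO libraries (1 of 8, against 3.38% of all genes called higher), and 0 were lower (against 5.63%). At an unadjusted p below 0.05 there were 4 of 8, against 23.2% of all genes. The DESeq2 Wald test and limma-voom each put 3 past the threshold and higher (Gimap3, Gimap5 and Gimap6), against 6.2% and 4.76% of all genes called higher by these tools. In 2 members, Gimap3 and Gimap6, every NFAT5 KO library was above every WT library in CPM, as in 3.92% of all genes. In TPM the Gimap6 groups overlapped, with NFAT5 KO 678_3 at 307.5 TPM and WT 679_3 at 311.8 TPM. For Gimap3 the same libraries stood at 342.5 and 338.7 TPM, without overlap of the groups. The members had a median log2 fold change of 0.23, against 0.02 for all genes tested. These counts come from the contrast with which the family was put forward, and nothing further is read from them.

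**Figure D1:**
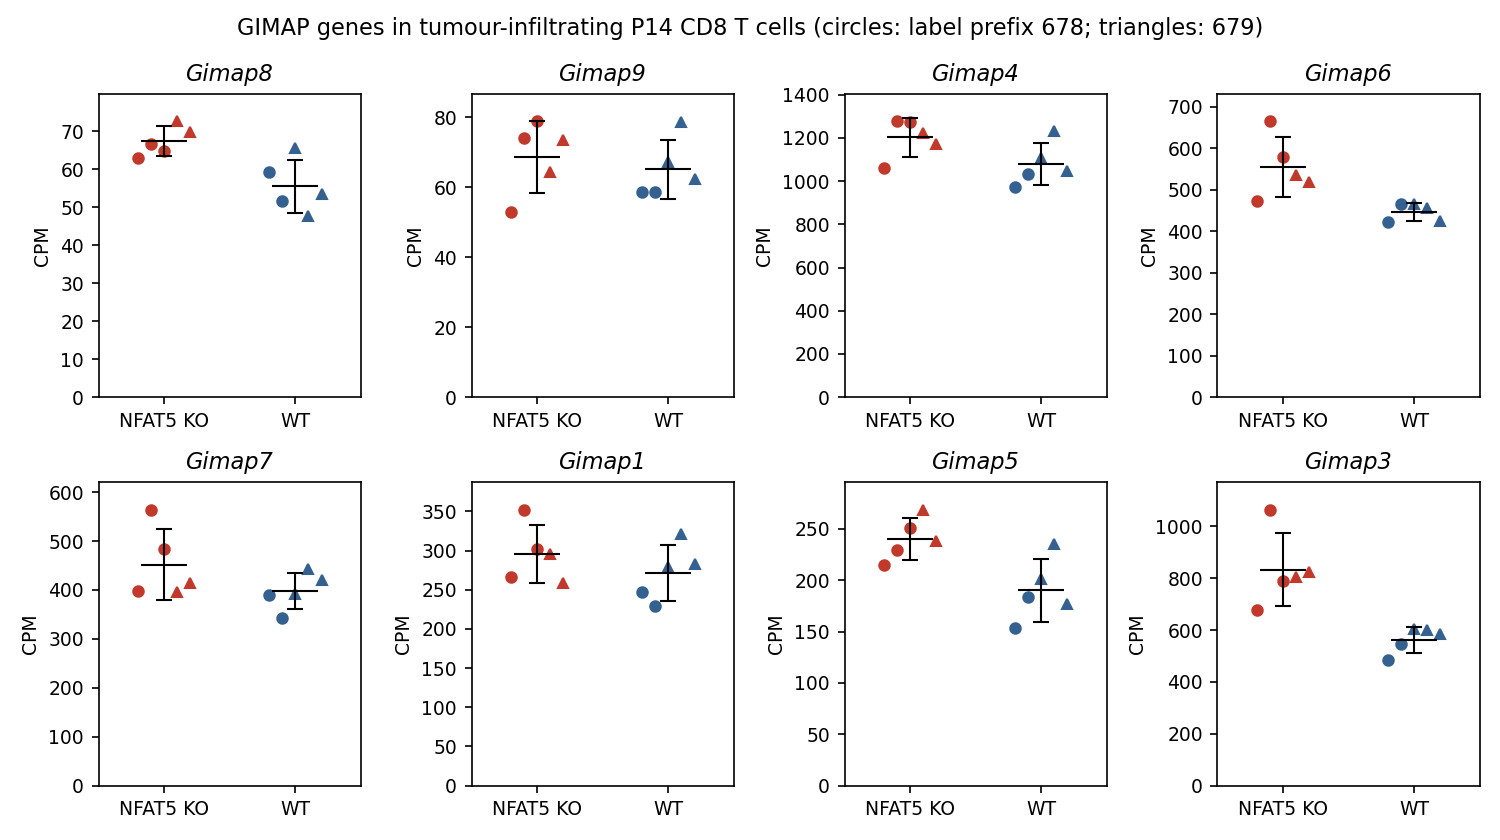
Level of each GIMAP gene (CPM, y axis from 0) in 5 NFAT5 KO libraries (red, left) and 5 WT libraries (blue, right), in the order of the genes along the chromosome; circles and triangles mark the label prefixes 678 and 679, and bars give the mean ± SD. In Gimap3 the 5 NFAT5 KO libraries lie between 679 and 1065 CPM, above the WT libraries at 483 to 604 CPM.

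Gimap3 was counted at 804, 826, 679, 1065 and 790.1 CPM in NFAT5 KO libraries 679_2, 679_6, 678_3, 678_5 and 678_6, against 604, 599.8, 584, 483 and 545 CPM in WT libraries 679_3, 679_4, 679_5, 678_2 and 678_4. The groups did not overlap, and NFAT5 KO 678_5 was the highest of all. The means were 833 ± 142 CPM in NFAT5 KO and 563 ± 50.4 CPM in WT libraries (SD, n = 5 each), a log2 fold change of 0.56 (SE 0.11). In fits that left out 1 library the log2 fold change ran from 0.44 to 0.61, with the lowest without NFAT5 KO 678_5. Within label prefixes the fold changes were 0.71 (SE 0.20) for 678 (3 NFAT5 KO, 2 WT) and 0.44 (SE 0.09) for 679 (2 NFAT5 KO, 3 WT). Neither passed the threshold on its own, but 678 alone called 0 of 13747 genes higher and 679 alone called 71 of 13966 higher. The labels do not say what the prefix means. With the mean of the macrophage markers as a covariate the value was 0.42 and did not pass, in a fit that called 5 of 13081 genes higher. These markers summed to 20.7 to 71.1 CPM in NFAT5 KO and 54.9 to 143 CPM in WT libraries. The covariate therefore shares variation with genotype, and fits with it cannot separate macrophage RNA from genotype.

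Gimap3 and Gimap5 resemble each other, so reads can be shared between them. Of the 31-base stretches in Gimap3 transcripts, 13.2% also occur in Gimap5 transcripts, which is 8.02% of those in Gimap5. Gimap1 transcripts share 33.9% of theirs with the antisense gene Gimap1os and Gimap7 transcripts share 2.2% with the gene Gm28053, while Gimap4 and Gimap9 share 0. With Gimap3 and Gimap5 counted as 1 gene the log2 fold change was 0.51.

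Gimap6 was counted at 536, 519, 474, 666 and 580.0 CPM in NFAT5 KO libraries 679_2, 679_6, 678_3, 678_5 and 678_6, against 465, 457, 424, 423.5 and 466 CPM in WT libraries 679_3, 679_4, 679_5, 678_2 and 678_4. The groups did not overlap in CPM, but NFAT5 KO 678_3 and WT 678_4 differed little, and in TPM the groups overlapped. The means were 555 ± 72.7 CPM in NFAT5 KO and 447 ± 21.6 CPM in WT libraries, a log2 fold change of 0.31 (SE 0.09) that did not pass the threshold. It passed without NFAT5 KO 678_3, and the fits that left out 1 library ran from 0.22 to 0.34. With the macrophage markers as a covariate the value was 0.11.

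Gimap5, which is needed for survival of peripheral T cells in mice, was counted at 269, 238, 215, 229 and 251 CPM in NFAT5 KO libraries 679_2, 679_6, 678_3, 678_5 and 678_6. The counts were 201, 236, 176.5, 154 and 184 CPM in WT libraries 679_3, 679_4, 679_5, 678_2 and 678_4. WT 679_4 lay inside the NFAT5 KO range, and the other 4 WT libraries lay below every NFAT5 KO library. The means were 240.3 ± 20.5 CPM in NFAT5 KO and 190.2 ± 30.6 CPM in WT libraries, a log2 fold change of 0.34 (SE 0.11) that did not pass. It passed without WT 679_4, and with the label prefix as a block, which is a description of a chosen member.

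Gimap8, a member with several GTPase domains, was counted at 72.6, 69.8, 62.8, 66.7 and 64.8 CPM in NFAT5 KO libraries 679_2, 679_6, 678_3, 678_5 and 678_6. The counts were 65.6, 47.7, 53.4, 59.1 and 51.5 CPM in WT libraries 679_3, 679_4, 679_5, 678_2 and 678_4. WT 679_3 alone reached into the NFAT5 KO range. The log2 fold change was 0.28 (SE 0.11) and did not pass.

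The other 4 members overlapped widely between genotypes and did not pass. Gimap4 lay at 1063 to 1278 CPM in NFAT5 KO and at 974 to 1230 CPM in WT libraries, with a log2 fold change of 0.16 (SE 0.08). Gimap7 lay at 395 to 564 CPM in NFAT5 KO and at 344 to 442 CPM in WT libraries, with a log2 fold change of 0.18 (SE 0.11). The value of Gimap7 moved to 0.07 without NFAT5 KO 678_5. Gimap1, which mature T and B cells of mice need, lay at 259 to 352 CPM in NFAT5 KO and at 229 to 321 CPM in WT libraries, with a log2 fold change of 0.12 (SE 0.11). Gimap9 lay at 52.8 to 78.8 CPM in NFAT5 KO and at 58.6 to 78.7 CPM in WT libraries, with a log2 fold change of 0.08 (SE 0.13). Without NFAT5 KO 678_5 the value of Gimap1 was 0.03, and without NFAT5 KO 678_6 that of Gimap9 was 0.004. With the macrophage markers as a covariate the values of Gimap4, Gimap7, Gimap1 and Gimap9 were 0.07, 0.04, -0.01 and -0.009. In libraries of prefix 679 alone the log2 fold changes of Gimap1, Gimap7 and Gimap9 were -0.09, -0.05 and -0.02, against 0.36, 0.39 and 0.22 in libraries of prefix 678 alone.

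**Figure D2:**
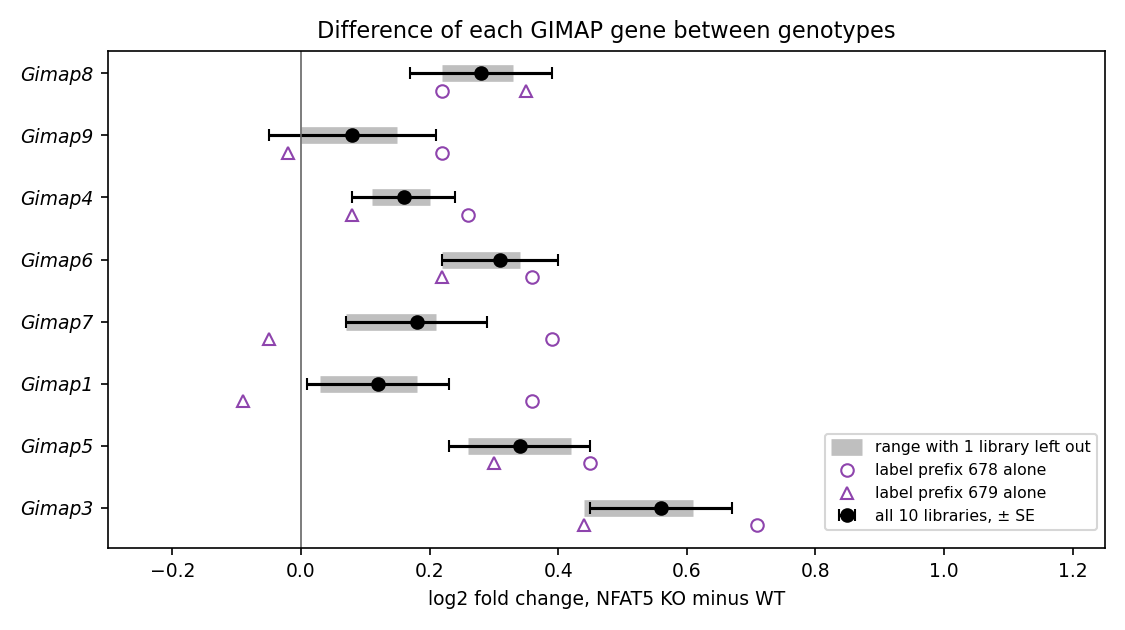
Log2 fold change of each GIMAP gene (x axis, NFAT5 KO minus WT): black points with bars give the value over all 10 libraries ± SE, grey bands the range with 1 library left out, and open symbols the value in libraries of label prefix 678 (circles) or 679 (triangles) alone. Gimap3 stands highest at 0.56 and Gimap9 lowest at 0.08, and 3 members lie below 0 in prefix 679 alone.

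The share of each member in the family's TPM was compared next. Gimap3 held 15.5 ± 1.48% of the family's TPM in NFAT5 KO and 12.6 ± 0.589% in WT libraries (SD, n = 5 each). Its range was 14.1% to 17.7% in NFAT5 KO and 11.9% to 13.2% in WT libraries, which did not overlap. A higher mean share goes with Gimap3 having the highest log2 fold change of the members. Both come from the same data, so the share is a description and no separate result. The shares of the other 7 members overlapped, with Gimap4 at 31.6 ± 1.49% in NFAT5 KO and 33.2 ± 0.586% in WT libraries. Gimap8 held 0.912 ± 0.0959% in NFAT5 KO and 0.897 ± 0.142% in WT libraries.

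Transcripts within each gene were also set side by side. The 30 annotated transcripts of the members each overlapped between genotypes in their share of the gene's TPM. How often transcripts of all genes overlap in this way was not computed, so nothing is read from this count. Gimap3-202 held 96.8% of Gimap3 in NFAT5 KO and 96.2% in WT libraries, and Gimap7-201 held 97.8% of Gimap7 in NFAT5 KO and 97.7% in WT libraries. Gimap4 was more mixed, with Gimap4-202 at 59.6% in NFAT5 KO and 62.3% in WT libraries and the shorter Gimap4-204 at 23.5% in NFAT5 KO and 20.2% in WT libraries. In Gimap5 the largest mean share fell to Gimap5-203, a transcript annotated as processed and not as protein coding, at 51.0 ± 9.56% in NFAT5 KO and 53.3 ± 2.39% in WT libraries. The protein-coding Gimap5-201 held 30.0 ± 7.40% in NFAT5 KO and 27.4 ± 1.53% in WT libraries (SD, n = 5 each). This order did not hold in NFAT5 KO 678_5, where Gimap5-201 held 42.5% and Gimap5-203 34.8%. Salmon divides reads among transcripts by a model, and shares of short transcripts are the least certain.

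Libraries of 1 genotype differed together in most members. After the genotype mean was subtracted from log2 CPM, Gimap4 followed the mean of the other members with a Pearson r of 0.92 over the 10 libraries, and Gimap3, Gimap1 and Gimap9 with 0.82, 0.81 and 0.80. The values were 0.74 for Gimap6, 0.70 for Gimap7 and 0.50 for Gimap5. Gimap8 did not follow the others, with r of -0.13. NFAT5 KO 678_3 was below its genotype mean in all 8 members, by 0.098 (Gimap8) to 0.364 (Gimap9) log2 units. NFAT5 KO 678_5 was above it in 6 of 8, by up to 0.371 log2 units in Gimap3, and WT 679_4 was above it in 7 of 8. WT 678_2 and WT 678_4 were both below their genotype mean in Gimap1, Gimap3, Gimap4, Gimap5, Gimap7 and Gimap9. NFAT5 KO 678_3 and 678_5, which share that prefix, lay on opposite sides in most members. The label prefix was not taken out of these values, and its part was not tested. The points share library, depth and scaling, so these values are descriptions. The closest pair was Gimap4 and Gimap9 (r = 0.89), followed by Gimap1 and Gimap7 (r = 0.86), while the related pair Gimap3 and Gimap5 had r of 0.39.

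**Figure D3:**
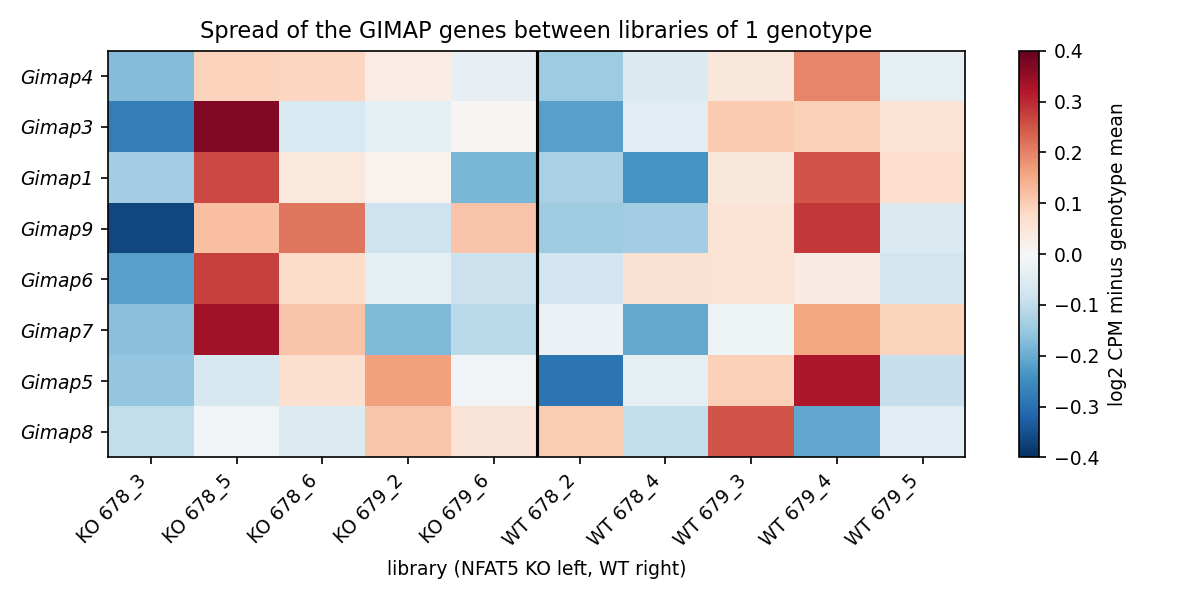
Log2 CPM of each GIMAP gene minus its genotype mean (colour, blue below and red above) in each library, NFAT5 KO left of the line and WT right of it. NFAT5 KO 678_3 is blue in all 8 rows, and the Gimap8 row differs from the other 7.

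Outside the family, 13073 genes were ranked by their likeness to the members' mean on the same centred values over the 10 libraries. The median r was -0.054, and 18 genes had r over 0.9. The 8 most alike were Ccdc61 (r = 0.952), 2810013P06Rik (0.946), Fgfr1op (0.942), Fdxr (0.941), Pitpna (0.939), Ciart (0.936), Wdr20 (0.933) and Gm26580 (0.932). Of these 8, 1 passed the test between genotypes, against 9.01% of all genes tested, and nothing is read from this count. Fdxr, which encodes a mitochondrial electron carrier enzyme, averaged 45.2 ± 5.50 CPM in NFAT5 KO and 62.0 ± 8.54 CPM in WT libraries (log2 fold change -0.46, SE 0.12, edgeR adjusted p = 0.0389), lower while the members were not.

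Other genes annotated inside the span were set beside the family, since their reads can be confused with it. Gm28053, a gene annotated from Gimap7 through Gimap1 to Gimap5, was counted at 3.98 to 6.45 CPM in NFAT5 KO and at 6.84 to 9.01 CPM in WT libraries. Every NFAT5 KO library was below every WT library in CPM, as in 6.41% of all genes, but the groups overlapped in TPM. Its log2 fold change of -0.51 (SE 0.22, edgeR adjusted p = 0.188) did not pass. Of its 31-base stretches 35.8% also occur in members, so its counts are uncertain. Gimap1os, which lies antisense to Gimap1, was counted at 31.2 to 38.6 CPM in NFAT5 KO and at 20.5 to 35.2 CPM in WT libraries (log2 fold change 0.37, SE 0.16, edgeR adjusted p = 0.170). Whether the counting used strand is not given in the sources used here. Without strand, reads from the sequence that Gimap1 and Gimap1os share cannot be told apart. The noncoding genes Gm44226 and 4833403J16Rik were low, at 1.10 to 2.78 and 0.842 to 2.24 CPM in NFAT5 KO and at 1.001 to 1.81 and 0.667 to 2.02 CPM in WT libraries. The pseudogene Gm44262 had 0 counts in every library.

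Around the family, 76 other genes lie inside the span or start within 1 Mb of it, and 30 of them passed the filter. Among these 30, 1 passed the test, the pseudogene Zfp862-ps, against 9.01% of all genes tested. The median log2 fold change of the 30 was -0.04. Zfp862-ps averaged 8.36 ± 4.10 CPM in NFAT5 KO and 23.04 ± 9.60 CPM in WT libraries (log2 fold change -1.46, SE 0.36, edgeR adjusted p = 0.0255). With 1 library left out it passed in 4 of 10 fits. It was lost without NFAT5 KO 678_5, 678_6 or 679_2 and without WT 678_2, 679_3 or 679_5, where the adjusted p reached at most 0.0656. No neighbour was called higher, against 3.38% of all genes, and 14 of the 30 had a positive log2 fold change, against 51.8%. Nothing about the region is read from these counts.

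**Figure D4:**
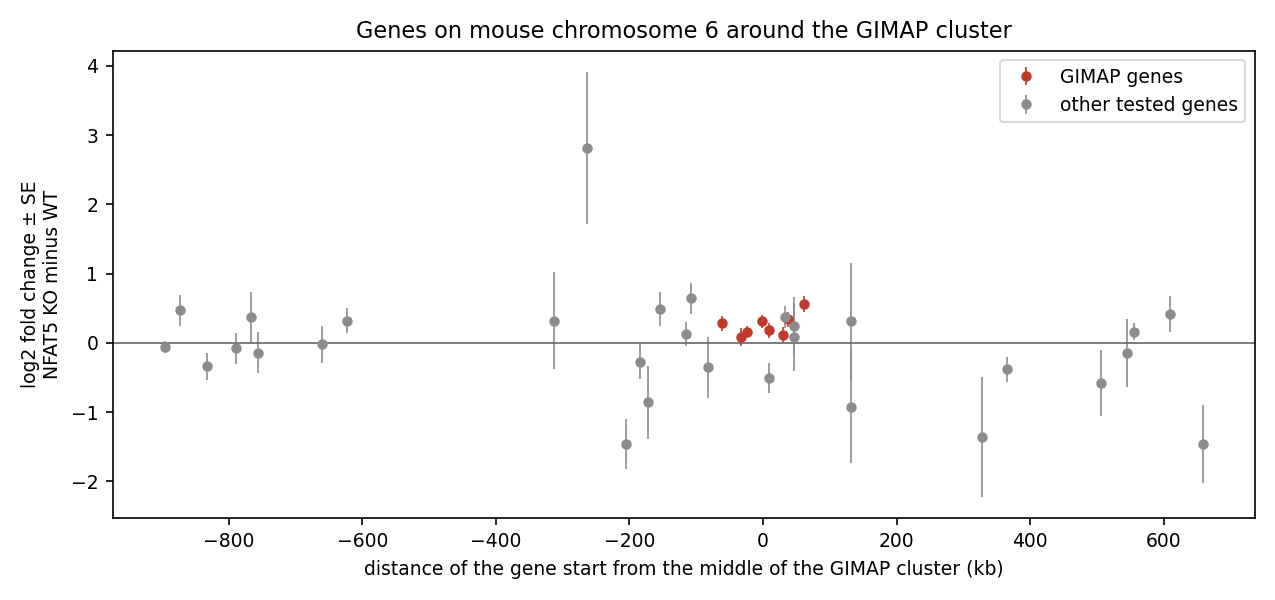
Log2 fold change ± SE (y axis, NFAT5 KO minus WT) of the 8 GIMAP genes (red) and the 30 other tested genes (grey) against the distance of their starts from the middle of the cluster in kb. The GIMAP genes lie between 0.08 and 0.56, and the grey points lie on both sides of 0 with a median of -0.04.

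Genes of processes tied to GIMAPs were compared between genotypes in the same fit, from lists that do not contain the members. The lists were chosen with earlier results of these data known, so counts of calls in them are descriptions. Of 20 genes of quiescent and naive T cells, 8 rose in NFAT5 KO libraries, none fell and 12 did not pass (median log2 fold change 0.37, against 0.02 for all genes). Calls in this list are set against 3.38% of all genes called higher. Satb1, a chromatin organiser of T cells, averaged 1028 ± 197 CPM in NFAT5 KO and 465 ± 124 CPM in WT libraries. Its log2 fold change was 1.14 (SE 0.17, edgeR adjusted p = 0.00158). The antiproliferative genes Btg1, Btg2 and Tob1 rose by 0.82 (SE 0.13), 0.65 (SE 0.10) and 0.83 (SE 0.17) on the log2 scale. Klf3, a transcription factor gene, rose by 1.81 (SE 0.32), and Il7r, which encodes a receptor for the survival cytokine IL-7, by 1.21 (SE 0.23). These 6 stayed past the threshold in 10 of 10 fits that left out 1 library. The other 2 called genes were S1pr1, which encodes a receptor for lymphocyte exit from tissue and passed in 10 of 10 such fits, and Slfn2, which is needed for T cell quiescence in mice and passed in 2 of 10. The adjusted p of Slfn2 reached 0.113 without WT 678_2, and both genes were named after their values were seen.

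Immune GTPases induced by interferon gave calls in both directions. Of 18 listed genes 17 were tested, 5 rose, 1 fell and 11 did not pass, with a median log2 fold change of 0.34. Of all genes tested, 3.38% were called higher and 5.63% lower. Tgtp1, which encodes a T cell-specific GTPase, averaged 246 ± 73.1 CPM in NFAT5 KO and 133 ± 16.0 CPM in WT libraries (log2 fold change 0.88, SE 0.19, edgeR adjusted p = 0.0104). Iigp1, an immunity-related GTPase gene, fell to 10.6 ± 3.42 CPM in NFAT5 KO libraries, against 28.8 ± 5.08 CPM in WT libraries (log2 fold change -1.44, SE 0.22, edgeR adjusted p = 0.00182). Both stayed past the threshold in 10 of 10 fits that left out 1 library. Tgtp2, Gbp2, Irgm2 and Gbp8 rose by 0.54, 0.40, 0.60 and 0.63, and passed in 3, 3, 1 and 2 of those 10 fits, where the adjusted p reached 0.0823, 0.115, 0.108 and 0.107. Tgtp1 and Tgtp2 are near-identical copies, so the split of reads between them is uncertain. With 1 library left out the list had 2 to 7 calls, and it had 2 without NFAT5 KO 678_6, NFAT5 KO 679_2, WT 678_2, WT 679_3 or WT 679_5.

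Among 20 genes of autophagy and cell death, processes in which GIMAP proteins have been placed, 3 rose and none fell, against 3.38% of all genes called higher and 5.63% lower. Of 13 genes of the ATG8 family and autophagy, 2 rose and 11 did not pass (median log2 fold change 0.17). Gabarapl2, which encodes the ATG8 protein that human GIMAP6 binds, averaged 148 ± 8.77 CPM in NFAT5 KO and 120 ± 7.94 CPM in WT libraries (log2 fold change 0.31, SE 0.08, edgeR adjusted p = 0.0289). The cargo receptor gene Sqstm1 had a log2 fold change of 0.37 (SE 0.10). With 1 library left out they passed in 2 and 3 of 10 fits, and without WT 678_2 their adjusted p-values reached 0.106 and 0.125. The list had 0 calls without NFAT5 KO 678_5, NFAT5 KO 679_6, WT 678_2, WT 679_3 or WT 679_5, and 1 call in each of the other 5 such fits. Of 7 genes of the BCL2 family, which controls cell death, 1 rose and 6 did not pass (median 0.14). Bax, which encodes a pore-forming death protein, averaged 188 ± 23.5 CPM in NFAT5 KO and 129 ± 13.7 CPM in WT libraries (log2 fold change 0.54, SE 0.11, edgeR adjusted p = 0.00678), past the threshold in 10 of 10 such fits.

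**Figure D5:**
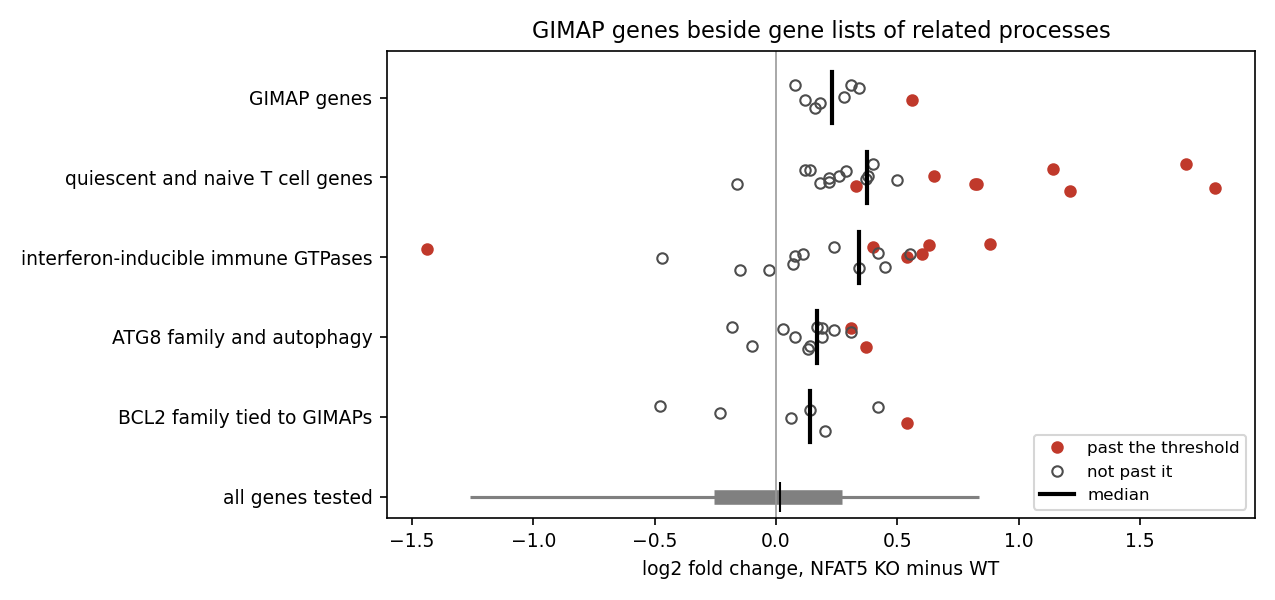
Log2 fold change (x axis, NFAT5 KO minus WT) of the GIMAP genes and of 4 gene lists; filled red points passed the threshold over all genes, open points did not, and black lines are medians. The grey bar at the bottom spans the 25th to 75th percentile of all genes tested (-0.26 to 0.27) and the thin line the 5th to 95th (-1.26 to 0.84), and the GIMAP median is 0.23.

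Some other features of the libraries moved with genotype beside these values. Calls among the markers are set against 3.38% of all genes called higher and 5.63% called lower. Of 10 T cell markers, 2 (Trac and Cd2) rose, and the 10 summed to 9865 to 10340 CPM in NFAT5 KO and 8950 to 9989 CPM in WT libraries. All 20 tested cell cycle genes fell, with a summed level of 1085 to 1899 CPM in NFAT5 KO and 3261 to 4998 CPM in WT libraries. Of 10 macrophage markers, 8 were tested and 1 (Adgre1) fell, with a summed level of 20.7 to 71.1 CPM in NFAT5 KO and 54.9 to 143 CPM in WT libraries. Every tested macrophage marker had a negative log2 fold change, from -0.33 (Cd68) to -3.86 (Adgre1). Lyz2, C1qa, C1qb and Csf1r were among the 10, and none of the 10 was at 0 in every library. With the mean of these markers as a covariate, calls numbered 0 in the quiescence, interferon-inducible and autophagy lists and 1 in the BCL2 list, and 79 over all genes. In libraries of prefix 678 alone there were 0 calls over all genes. The 8 B cell markers, of which 3 were tested and 1 fell, summed to 232 to 294.5 CPM in NFAT5 KO and 280.0 to 657 CPM in WT libraries. Most of this was Ighm at 225 to 287 CPM in NFAT5 KO and 267 to 641 CPM in WT libraries, and Pax5 and Blk were at 0 throughout. Of 10 endothelial markers, 6 (Esam, Tek, Cdh5, Erg, Emcn and Kdr) were at 0 in every library, and the sum of 40.1 to 52.5 CPM in NFAT5 KO and 46.1 to 72.9 CPM in WT libraries was mostly Pecam1, which T cells also express. The 5 NK cell markers summed to at most 6.19 CPM in NFAT5 KO and 5.34 CPM in WT libraries, and the 8 melanoma markers to at most 3.79 CPM in NFAT5 KO and 4.27 CPM in WT libraries, with Ncr1 (NK cells) and Slc45a2 and Sox10 (melanoma) at 0 throughout. The CD4 and regulatory T cell markers summed to at most 2.42 CPM in NFAT5 KO and 1.80 CPM in WT libraries, the neutrophil markers to at most 0.777 CPM in NFAT5 KO and 1.80 CPM in WT libraries, and the dendritic cell markers to at most 21.1 CPM in NFAT5 KO and 13.5 CPM in WT libraries. Of these, Retnlg and S100a9 (neutrophils) and Siglech (dendritic cells) were at 0 throughout. The part of the cell cycle, T cell and B cell values in the GIMAP differences was not tested. That of the macrophage markers cannot be separated from genotype by the covariate fit.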

How the data were processed

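For every library the authors deposited transcript lengths, an estimated count and TPM for 140919 transcripts, per the file headers. As deposited, estimated counts carry no normalization; TPM is scaled by effective length and library total. Salmon 0.14.1 is named by the submitters' processing notes, as are the builds GRCm38.p6 and mm10. Annotation release, read trimming and strand setting were not given in the sources used here.

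Transcripts were matched to GENCODE M21 (GRCm38) by identifier (99.38% matched; the others held at most 0.228% of a library's counts), and their estimated counts were summed over each gene and rounded to whole counts. Genes were filtered with filterByExpr, scaled with TMM and tested in R 4.3.3 by the robust quasi-likelihood fit of edgeR 4.0.16, NFAT5 KO minus WT over all 10 libraries without a covariate, with Benjamini-Hochberg adjustment over 13081 genes. SE is the fold change over the square root of F; the prior count for log2 CPM was 2. Common biological variation was 35.7%, and the totals of 22444310 to 32001285 counts set the counting error. Replicates were checked for duplicates, and every pair differed beyond sampling noise (lowest chi-square per gene 27.4). The fit was tested on simulated data.

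The members and lists were chosen with earlier results of these data known. Named genes were the members, genes inside the span, called neighbours, up to 6 called members of each list and the 8 most alike genes. Alternatives were DESeq2 1.42.0 size factors or Wald test, limma-voom (3.58.1) with quality weights, other filters, library size alone, a length offset, the label prefix as a block or alone, marker covariates, Gimap3 and Gimap5 as 1 gene, and leaving out each library. Amino acid sequences were not used here.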

Additional observations from a re-analysis of the deposited data

How the results depend on the processing

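The positive direction held for Gimap3, Gimap4, Gimap5, Gimap6 and Gimap8 under every alternative run. Prefix 679 alone turned Gimap1 to -0.093, Gimap7 to -0.055 and Gimap9 to -0.018, and the macrophage covariate turned Gimap1 to -0.01 and Gimap9 to -0.009. The cause was not tested.

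Members called higher numbered 3 with the DESeq2 Wald test or limma-voom, 2 with the stricter filter, the length offset or the prefix block, 0 in either prefix alone and 0 with the macrophage covariate, and 1 to 2 with 1 library left out; 0 were called lower throughout. Their median was 0.231 over all libraries, 0.362 in prefix 678 alone, 0.152 in prefix 679 alone and 0.091 with the macrophage covariate, and 0.168 to 0.241 with 1 library left out. Over all genes 1893 were called by the DESeq2 Wald test, 0 in prefix 678 alone, 325 in prefix 679 alone and 79 with the macrophage covariate, and 696 to 1276 with 1 library left out, the fewest without WT 678_2.

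Quiescence genes called were 0 in prefix 678 alone, where no gene at all was called, and 6 in prefix 679 alone. They were 0 with the macrophage covariate, and 7 to 9 with 1 library left out. Interferon-inducible GTPases called were 0 and 1 in prefixes 678 and 679 alone, 3 with the prefix block, no filter or the length offset and 0 with the macrophage covariate, and 2 to 7 with 1 library left out. Autophagy genes called were 0 in either prefix alone, with library size alone, with no filter or with either marker covariate, 1 with the prefix block, and 0 to 1 with 1 library left out. BCL2 family genes called were 0 in either prefix alone, and 1 in each fit with 1 library left out. Neighbours called were 2 with the DESeq2 Wald test, 0 in either prefix alone and 0 with the macrophage covariate, and 0 to 1 with 1 library left out. Library size alone moved the share of higher calls to 28.2%, from 37.5%, and the macrophage covariate moved it to 6.33%. Prefix 679 alone moved it to 21.8%, and it ran from 28.7% to 38.4% with 1 library left out. No paired analysis was possible because the genotypes share no replicate label.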
